A study of Mus musculus with 20 samples.

Results

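The genes described here encode 30 proteins that break down amino acids, mostly in mitochondria, or steer that breakdown, taken from a list of symbols and found among the 25851 genes of a heart RNA-seq table. Of the 30 genes, 21 serve the branched-chain amino acids leucine, isoleucine and valine, and 9 serve lysine, proline, ornithine, glutamate or alanine. No rule on measured values built the list, but its genes were chosen with earlier results of these data known. In all, 28 of the 30 genes had a mean of at least 0.5 FPKM over the 20 hearts and were tested. Bcat1 and Aass lay below that level and are given as values only. FPKM counts fragments per kilobase of transcript, scaled for the depth of a library, so levels of different genes are set side by side per unit length.

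Hearts came from male mice of 14 to 16 weeks in 4 groups of 5: labelled knockout mice after 6 weeks of voluntary wheel running, labelled knockout mice kept sedentary, wild-type mice after 6 weeks of voluntary wheel running, and sedentary wild-type mice. The series names the knockout as one of PGC-1α in cardiomyocytes, and neither the Cre line, the deleted part of the gene nor the strain is stated. Poly-A selected RNA of heart tissue pieces was sequenced. The design asks how loss of PGC-1α, a coactivator of genes of mitochondrial metabolism, and endurance training each act on the heart.

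Branched-chain amino acids enter mitochondria through the carrier SLC25A44. There BCAT2 passes their amino group to 2-oxoglutarate. The branched-chain ketoacid dehydrogenase complex then commits the carbon skeletons to oxidation, and it is switched off by the kinase BCKDK and on by the phosphatase PPM1K. Leucine ends as acetyl-CoA and acetoacetate, valine as propionyl-CoA, and isoleucine as both acetyl-CoA and propionyl-CoA. The heart oxidises these amino acids beside fatty acids and glucose, and slowed branched-chain breakdown is a known feature of failing hearts.

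Promoter bases are printed for 5 of the genes. Mccc2, Gcdh and Bcat2 had the smallest p-values between the trained groups. Prodh moved against all others in sedentary hearts, and Pccb held the NRF1 element described next. Whether the levels follow from these bases was not tested. Each run holds the 120 bases nearest to the RefSeq transcript start that lie outside the exons of the gene in GENCODE M21, 5′ to 3′ on the strand of the gene (RefSeq, GRCm38.p6). Capitals mark CG in the first 4 runs and the NRF1 element in the last. Coordinates here and below are of GRCm38 (mm10), and the 30 genes are annotated as protein-coding. The runs lie at chr13:100015640-100015759 (minus strand), chr8:84893922-84894041 (minus strand), chr7:45570033-45570152 (plus strand), chr16:18089293-18089412 (minus strand) and chr9:101034899-101035018 (minus strand).
Mccc2: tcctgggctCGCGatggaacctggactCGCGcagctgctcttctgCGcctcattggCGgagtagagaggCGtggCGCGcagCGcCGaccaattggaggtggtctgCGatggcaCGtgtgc
Gcdh: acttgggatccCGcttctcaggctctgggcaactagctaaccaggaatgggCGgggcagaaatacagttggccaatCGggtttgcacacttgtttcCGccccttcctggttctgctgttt
Bcat2: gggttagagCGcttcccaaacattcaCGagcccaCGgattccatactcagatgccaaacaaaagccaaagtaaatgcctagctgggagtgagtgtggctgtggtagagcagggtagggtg
Prodh: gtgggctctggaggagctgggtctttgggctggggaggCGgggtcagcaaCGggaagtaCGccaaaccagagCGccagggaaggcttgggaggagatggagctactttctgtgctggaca
Pccb: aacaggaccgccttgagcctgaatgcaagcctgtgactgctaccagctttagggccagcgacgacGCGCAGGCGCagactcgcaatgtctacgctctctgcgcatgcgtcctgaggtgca

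The run of Mccc2 held 13 CG, that of Gcdh 4, that of Bcat2 3 and that of Prodh 4. RefSeq windows of 300 bases around a transcript start were given for 27 of the 30 genes, 32 windows in all. These windows held a median of 15.5 CG, against 13 in 21263 windows of protein-coding genes. The element of the estrogen-related receptors (TNAAGGTCA) was in 0 of the 32 windows on either strand and in 1.28% of all 32851 windows. The DR1 element of PPARs (AGGTCA, any base, AGGTCA) was in 0 of the 32 and in 0.0396% of all. The element of ATF4 (TGATGNAA) was in 0 of the 32 and in 3.97% of all. The element of NRF1 (GCGCA, any base, GCGC) was in 2 of the 32, those of Hibadh and Pccb, and in 4.60% of all, and was added after values were seen. A window without the letters says nothing of where a factor binds.

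Transcript of the targeted gene did not check the labels in the usual direction. Ppargc1a, which encodes PGC-1α, had 27.9, 18.8, 23.03, 18.2 and 26.5 FPKM in labelled knockout sedentary hearts, against 14.8, 9.39, 15.4, 12.2 and 9.48 FPKM in wild-type sedentary hearts. Trained labelled knockout hearts had 23.01, 26.9, 21.2, 18.7 and 22.95 FPKM, against 21.9, 10.4, 17.4, 11.2 and 17.98 FPKM in trained wild-type hearts. The whole-gene level rose in the labelled knockouts of both activity groups (log2 fold change 0.88 and 0.55, adjusted p = 0.00471 and 0.0387), and a level over a whole gene does not check a deletion of part of it. Esrra, encoding the receptor ERRα that works with PGC-1α, had 61.1, 61.2, 62.02, 64.3 and 62.4 FPKM in labelled knockout sedentary hearts, against 85.9, 92.6, 78.98, 88.4 and 87.9 FPKM in wild-type sedentary hearts, with no overlap. The groups are called labelled knockout throughout.

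Depth came to 14.2 to 30.4 M reads per library, recovered from the FPKM values. In 4 of the 10 trained hearts the atrial light chain Myl7 exceeded 1000 FPKM, and the adipocyte genes Adipoq and Ucp1 were at 3.94 FPKM or more: labelled knockout replicates 2 and 5 and wild-type replicates 4 and 5. The clock gene Arntl exceeded 2 FPKM in 5 sedentary hearts, wild-type replicates 1 to 4 and labelled knockout replicate 1. Results are given with and without these hearts where that changes them. All libraries carry the same batch label, and the summed level of 10 cardiomyocyte markers differed between groups, as given beside the results below.

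In sedentary wild-type hearts the genes spanned a wide range of levels. Ivd stood highest at 109 ± 9.05 FPKM (SD, n = 5), next to Oat at 101 ± 3.81 FPKM, and the ranges of these 2 overlapped. Hsd17b10 followed at 84.3 ± 8.73 FPKM, apart from both of its neighbours. Pccb, Bckdha, Mcee, Glud1, Aldh6a1 and Bcat2 lay between means of 54.4 and 39.5 FPKM, and from Pccb down to Auh every neighbour overlapped the next. At the lower end stood Prodh at 5.42 ± 1.74 FPKM and Dhtkd1 at 1.33 ± 0.260 FPKM. Bcat1, the cytosolic aminotransferase, ranged from 0.0737 to 0.529 FPKM over the 20 hearts, and Aass, which opens lysine breakdown, from 0.0428 to 0.323 FPKM.

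Most of the genes were lower in the labelled knockouts, and in the trained labelled knockouts they were lower again. In sedentary hearts 20 of the 28 tested genes fell and 1 rose in the labelled knockouts, where 6.32% of all 13723 genes tested fell and 6.96% rose. Their median log2 fold change was -0.46, against -0.01 over all genes. In bulk tissue, fewer cells of a type and less RNA per cell cannot be told apart. The summed level of 10 cardiomyocyte markers overlapped between the sedentary genotypes, and was lower in all 5 trained labelled knockouts than in any other heart. In trained hearts 25 of 28 fell and 0 rose in the labelled knockouts, where 15.4% of all genes fell and 12.5% rose, and the medians were -0.78 and -0.01. A gene was called when its adjusted p from limma was below 0.05. Without the 5 hearts with Arntl above 2 FPKM, which leaves 1 sedentary wild-type heart, 0 of 28 were called in sedentary hearts, while the median log2 fold change was -0.42. With log2 Arntl as a covariate in all 20 hearts, 17 fell and 0 rose, with a median of -0.41. High Arntl and wild-type genotype nearly coincided in sedentary hearts, so neither fit can tell Arntl and genotype apart.

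Training was followed by different counts in the 2 genotypes. In the labelled knockouts 25 of 28 fell and 0 rose with training, where 16.3% of all genes fell and 12.1% rose, with a median log2 fold change of -0.58 against -0.02 over all genes. In wild type 5 of 28 fell and 0 rose, where 2.53% of all genes fell, 2.94% rose and 5.47% did either, with a median of -0.23 against -0.01. The training change itself was more negative in the labelled knockouts for 11 of 28 genes and more positive for 0, where 5% of all genes were more negative and 2.32% more positive. The median difference in training change was -0.31. The count more negative was 2 after rescaling to a common sum of FPKM (median -0.14) and 1 after scaling to cardiomyocyte markers (median 0.045). It was 4 with Arntl as a covariate (median -0.35) and 0 without the hearts with high Arntl (median -0.42). Each genotype comparison shares a group of hearts with each training comparison, so the counts of such a pair are not separate evidence.

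**Figure D1:**
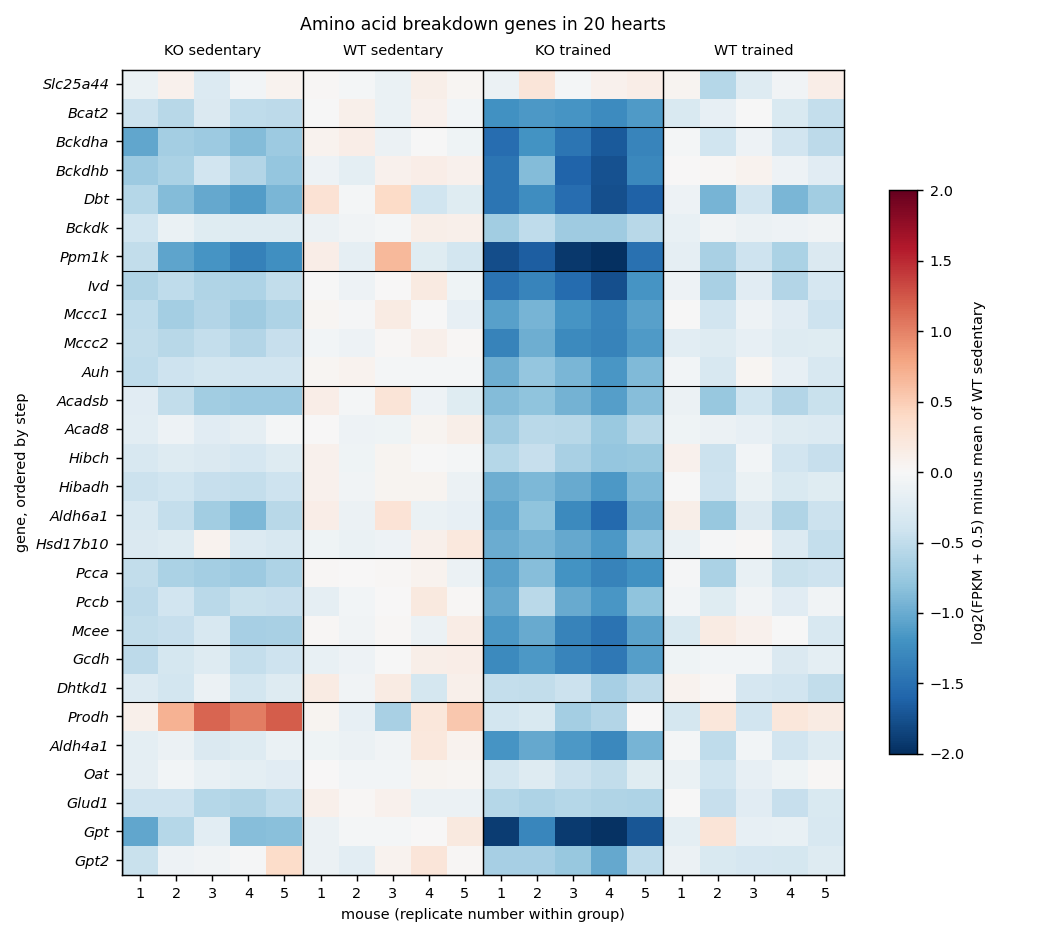
Level of each of the 28 tested genes (rows, ordered by step) in each of the 20 hearts (columns, by group and replicate), as log2(FPKM + 0.5) minus the mean of the sedentary wild-type hearts; KO is labelled knockout. Blue deepens over nearly all rows in the 5 trained labelled knockout hearts, Slc25a44 stays pale in every group, and Prodh is red in 4 of the 5 sedentary labelled knockout hearts.

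At entry and transamination, the mitochondrial aminotransferase fell and the carrier did not pass the test on the deposited scale. Bcat2 encodes the mitochondrial branched-chain aminotransferase (chromosome 7, 45570153 to 45589711, plus strand). It had 29.1, 26.7, 32.3, 27.6 and 27.2 FPKM in labelled knockout sedentary hearts, against 39.2, 42.2, 35.9, 42.1 and 37.96 FPKM in wild-type sedentary hearts. After training, the labelled knockouts had 16.8, 17.6, 17.1, 16.1 and 17.6 FPKM, against 31.7, 35.3, 39.03, 31.7 and 28.3 FPKM in wild type. Neither pair of groups overlapped, and the trained labelled knockouts were the lowest and least scattered of all. Bcat2 fell in both (log2 fold change ± SE -0.46 ± 0.08, adjusted p = 0.000633, and -0.94 ± 0.08, adjusted p = 6.09e-08) and with training in the labelled knockouts (-0.73 ± 0.08, adjusted p = 5.56e-06). Its training change was more negative in the labelled knockouts than in wild type, by -0.48 (adjusted p = 0.0154).

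Slc25a44, the carrier that brings branched-chain amino acids into mitochondria, passed in no comparison on the deposited scale. Rescaled to a common FPKM sum or to cardiomyocyte markers, it rose in trained labelled knockouts against both trained wild type and sedentary labelled knockouts. It had 6.43, 7.56, 5.76, 6.85 and 7.46 FPKM in labelled knockout sedentary hearts, against 7.19, 6.86, 6.41, 7.72 and 7.34 FPKM in wild-type sedentary hearts. Its level in trained hearts was 6.53, 8.46, 6.87, 7.53 and 7.85 FPKM in the labelled knockouts, against 7.43, 4.59, 5.83, 6.71 and 7.81 FPKM in wild type. The groups overlapped in every comparison. The 95% intervals of the log2 genotype difference ran from -0.29 to 0.17 in sedentary and from -0.03 to 0.44 in trained hearts, so a fall of the size seen for Bcat2 lay outside both.

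All 5 genes of the ketoacid dehydrogenase step fell in the labelled knockouts, both sedentary (median log2 fold change -0.81) and trained (median -1.14). Bckdha encodes the E1α subunit, which BCKDK phosphorylates (chromosome 7, 25629946 to 25658981, minus strand). It had 25.6, 33.1, 32.2, 29.1 and 32.1 FPKM in labelled knockout sedentary hearts, against 55.9, 58.6, 48.9, 53.3 and 50.4 FPKM in wild-type sedentary hearts. In trained hearts it had 18.3, 23.1, 19.04, 16.4 and 21.2 FPKM in the labelled knockouts, against 52.02, 40.4, 49.5, 40.6 and 36.9 FPKM in wild type. The highest labelled knockout heart lay below the lowest wild-type heart in both pairs. The log2 fold changes were -0.81 ± 0.10 (adjusted p = 6.03e-05) and -1.14 ± 0.10 (adjusted p = 1.74e-07).

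Dbt encodes the E2 core of the complex (chromosome 3, 116513070 to 116549981, plus strand). It had 16.03, 12.99, 11.6, 10.8 and 12.5 FPKM in labelled knockout sedentary hearts, against 29.4, 23.5, 31.7, 18.2 and 20.2 FPKM in wild-type sedentary hearts. Trained labelled knockout hearts had 8.43, 9.86, 7.998, 6.80 and 7.48 FPKM, against 22.3, 12.4, 18.3, 12.5 and 14.7 FPKM in trained wild-type hearts. The wild-type sedentary hearts were widely spread, and still no labelled knockout heart reached a wild-type heart of the same activity. Dbt fell by 0.90 in sedentary and by 0.92 in trained labelled knockouts on the log2 scale (adjusted p = 0.00155 and 0.000349). It also fell with training in wild type (-0.61 ± 0.17, adjusted p = 0.0432), and the training change did not pass a test of a difference between genotypes (-0.02 ± 0.24, adjusted p = 0.97).

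Bckdhb, the E1β subunit that pairs with E1α, averaged 12.97 ± 3.34 FPKM in trained labelled knockouts and 33.1 ± 2.64 FPKM in trained wild type (SD, n = 5 each). Its training change was the only one of the step that passed the test between genotypes (-0.73 ± 0.18, adjusted p = 0.0208). In wild type it showed -0.04 ± 0.12 with training, and in labelled knockouts -0.77 ± 0.12.

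The 2 regulators of the complex both fell. Ppm1k, the activating phosphatase (chromosome 6, 57506502 to 57535468, minus strand), had 12.2, 8.12, 7.36, 6.49 and 7.17 FPKM in labelled knockout sedentary hearts, against 19.1, 15.3, 27.6, 14.5 and 13.4 FPKM in wild-type sedentary hearts. After training, the labelled knockouts had 4.70, 5.18, 4.21, 3.54 and 5.85 FPKM, against 15.2, 10.8, 12.8, 11.04 and 14.2 FPKM in wild type. The first labelled knockout sedentary heart stood well above the other 4 and still below every wild-type sedentary heart. The log2 fold changes of Ppm1k were -1.06 ± 0.18 and -1.36 ± 0.18. Those of the kinase Bckdk (chromosome 7, 127904082 to 127910221, plus strand) were -0.26 ± 0.06 and -0.53 ± 0.06, with 24.6 to 29.5 FPKM in labelled knockout sedentary hearts and 29.9 to 35.5 FPKM in wild-type sedentary hearts.

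**Figure D2:**
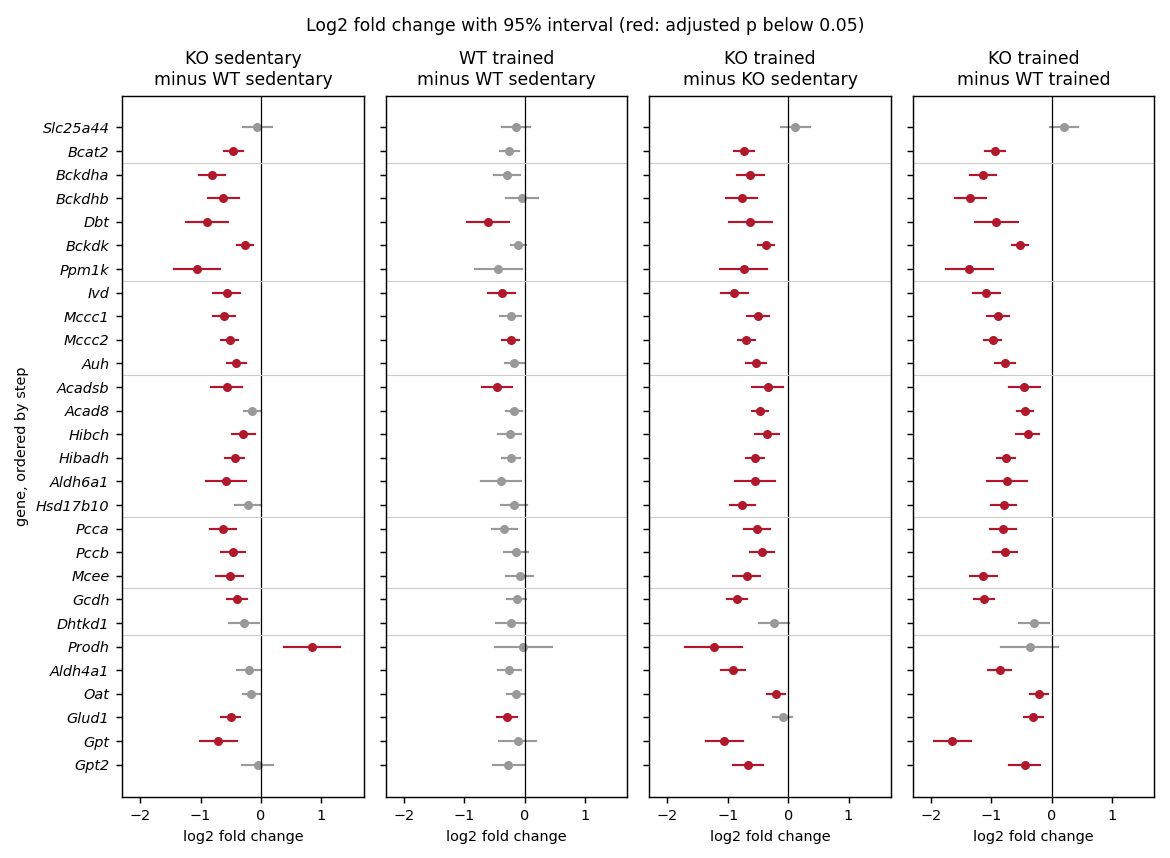
Log2 fold change of each tested gene (points) with its 95% interval (lines) in the 4 pairwise comparisons; red marks an adjusted p below 0.05 and grey the rest, and KO is labelled knockout. In trained hearts 25 of 28 points are red and left of 0, in sedentary hearts 20 are red on the left and Prodh alone is red on the right, and in wild-type training 5 are red.

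The leucine branch fell as a whole: 4 of 4 genes in sedentary and 4 of 4 in trained labelled knockouts, with medians of -0.54 and -0.93. Mccc2 encodes the carboxyltransferase (beta) subunit of methylcrotonyl-CoA carboxylase (chromosome 13, 99948530 to 100015639, minus strand). It had 19.04, 18.2, 19.4, 17.8 and 19.5 FPKM in labelled knockout sedentary hearts, against 26.04, 25.3, 27.6, 29.1 and 27.5 FPKM in wild-type sedentary hearts. Its level in trained hearts was 10.4, 13.6, 10.9, 10.4 and 12.1 FPKM in the labelled knockouts, against 23.2, 22.5, 24.1, 22.5 and 22.7 FPKM in wild type. All 4 pairs of groups compared were free of overlap, and Mccc2 was the only one of the 28 genes whose trained wild-type hearts all lay below the sedentary ones (1.68% of all genes did so). It had the smallest adjusted p among the 28 genes between the trained groups (-0.98 ± 0.07, adjusted p = 8.44e-09). Its training change was more negative in labelled knockouts, -0.69 ± 0.07, than in wild type, -0.23 ± 0.07, and the test of that difference gave -0.46 ± 0.09 (adjusted p = 0.0088).

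Ivd encodes isovaleryl-CoA dehydrogenase, which acts before that carboxylase in leucine breakdown (chromosome 2, 118861954 to 118882909, plus strand). It had 70.9, 76.1, 71.5, 70.4 and 76.6 FPKM in labelled knockout sedentary hearts, against 108, 101, 109, 123 and 102 FPKM in wild-type sedentary hearts. In trained hearts it had 38.5, 42.8, 36.8, 31.8 and 47.5 FPKM in the labelled knockouts, against 101, 68.9, 92.8, 72.4 and 85.6 FPKM in wild type. In trained wild type, replicates 2 and 4 were low and replicate 1 overlapped the sedentary range. Ivd fell with training in both genotypes, by 0.89 on the log2 scale in labelled knockouts and by 0.38 in wild type (adjusted p = 1.19e-05 and 0.0459). Mccc1, the biotin-carrying subunit, and Auh, the methylglutaconyl-CoA hydratase, fell by 0.89 and 0.78 in trained labelled knockouts.

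In the isoleucine and valine branch 4 of 6 genes fell in sedentary labelled knockouts and 6 of 6 in trained ones, with medians of -0.37 and -0.60. Hibadh, the 3-hydroxyisobutyrate dehydrogenase of valine breakdown (chromosome 6, 52546228 to 52640389, minus strand), had the smallest p of the branch in sedentary hearts. It had 19.3, 19.9, 18.9, 18.7 and 19.6 FPKM in labelled knockout sedentary hearts, against 27.9, 24.9, 27.2, 27.4 and 24.2 FPKM in wild-type sedentary hearts. Trained labelled knockout hearts had 13.2, 13.8, 12.8, 11.6 and 14.02 FPKM, against 26.2, 19.6, 23.97, 21.2 and 22.03 FPKM in trained wild-type hearts. The groups did not overlap in either pair, and the log2 fold changes were -0.44 ± 0.07 and -0.76 ± 0.07 (adjusted p = 0.000538 and 2.62e-07).

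Acadsb, the short/branched-chain acyl-CoA dehydrogenase of isoleucine (chromosome 7, 131410601 to 131448944, plus strand), was lower after training as well as in the labelled knockouts. It had 20.5, 16.97, 14.6, 14.2 and 14.3 FPKM in labelled knockout sedentary hearts, against 26.3, 23.2, 28.6, 22.2 and 20.2 FPKM in wild-type sedentary hearts. After training, the labelled knockouts had 12.9, 13.5, 12.2, 10.9 and 13.1 FPKM, against 21.98, 14.02, 18.1, 15.7 and 17.5 FPKM in wild type. The first labelled knockout sedentary heart and the fifth wild-type sedentary heart crossed. Acadsb fell in all 4 comparisons, between -0.57 ± 0.12 for genotype in sedentary hearts and -0.34 ± 0.12 for training in labelled knockouts. The training call in labelled knockouts was lost in 5 of 10 fits that left out a heart, and that in wild type in 6 of 10.

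Acad8, the isobutyryl-CoA dehydrogenase, and Hsd17b10, which acts on isoleucine intermediates, were the 2 genes of the branch that did not pass in sedentary hearts. Acad8 showed -0.15 ± 0.06 in sedentary hearts (adjusted p = 0.117) and fell by 0.44 in trained labelled knockouts (adjusted p = 2.9e-05). Hsd17b10 showed -0.21 ± 0.10 in sedentary hearts (adjusted p = 0.167), and fell by 0.79 in trained labelled knockouts (adjusted p = 7.33e-06). It averaged 42.8 ± 4.24 FPKM in trained labelled knockouts and 74.8 ± 9.94 FPKM in trained wild type (SD, n = 5 each). Its training change was more negative in labelled knockouts by -0.58 (adjusted p = 0.0213). Hibch, the hydroxyisobutyryl-CoA hydrolase, and Aldh6a1, the methylmalonate semialdehyde dehydrogenase, fell in the labelled knockouts of both activity groups. The sedentary call of Hibch (adjusted p = 0.0436) was lost in 9 of 10 fits that left out a heart, and that of Aldh6a1 in 3 of 10.

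All 3 genes of propionyl-CoA handling fell in both genotype comparisons, with medians of -0.52 and -0.81. Pcca encodes the biotin-carrying subunit of propionyl-CoA carboxylase (chromosome 14, 122534324 to 122891100, plus strand). It had 13.6, 12.3, 11.9, 11.4 and 12.4 FPKM in labelled knockout sedentary hearts, against 19.6, 19.3, 19.6, 20.2 and 17.7 FPKM in wild-type sedentary hearts. Its level in trained hearts was 8.81, 10.4, 8.09, 7.32 and 8.05 FPKM in the labelled knockouts, against 19.04, 12.2, 17.4, 13.96 and 14.3 FPKM in wild type. Among trained wild-type hearts replicate 1 was the highest and replicate 2 the lowest, and no labelled knockout heart reached them. The log2 fold changes were -0.63 ± 0.10 and -0.81 ± 0.10 (adjusted p = 0.000512 and 7.37e-06). Pccb, the partner subunit, showed -0.47 ± 0.09 and -0.77 ± 0.09. Mcee, the methylmalonyl-CoA epimerase, showed -0.52 ± 0.11 and -1.13 ± 0.11, and its training change was more negative in labelled knockouts by -0.61 (adjusted p = 0.0225).

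Of the lysine genes Gcdh changed and Dhtkd1 did not pass. Gcdh encodes glutaryl-CoA dehydrogenase, shared by lysine, hydroxylysine and tryptophan breakdown (chromosome 8, 84886393 to 84893921, minus strand). It had 22.4, 25.1, 26.9, 23.04 and 24.01 FPKM in labelled knockout sedentary hearts, against 28.8, 30.03, 32.2, 34.9 and 35.5 FPKM in wild-type sedentary hearts. In trained hearts it had 13.1, 14.3, 12.6, 11.7 and 14.7 FPKM in the labelled knockouts, against 30.3, 31.1, 31.1, 26.2 and 28.1 FPKM in wild type. The highest trained labelled knockout heart lay far below the lowest trained wild-type heart. Gcdh fell by 0.40 and 1.12 in the labelled knockouts (adjusted p = 0.00204 and 1.04e-08). With training it showed -0.85 ± 0.08 in labelled knockouts and -0.13 ± 0.08 in wild type, and the test of that difference had the smallest adjusted p of the 28 genes (-0.72 ± 0.11, adjusted p = 0.00567). Dhtkd1, a 2-oxoadipate dehydrogenase subunit, lay between 0.645 and 1.52 FPKM in all hearts, with -0.28 ± 0.12 in sedentary and -0.29 ± 0.12 in trained labelled knockouts (adjusted p = 0.13 and 0.0751).

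Among the 6 genes of proline, ornithine, glutamate and alanine, Prodh rose and 2 fell in sedentary labelled knockouts, and 5 fell in trained ones. Prodh encodes proline dehydrogenase, the first enzyme of proline breakdown (chromosome 16, 18060357 to 18090203, minus strand). It had 5.64, 8.73, 12.3, 11.2 and 12.8 FPKM in labelled knockout sedentary hearts, against 5.41, 4.60, 3.13, 6.19 and 7.79 FPKM in wild-type sedentary hearts. Trained labelled knockout hearts had 3.95, 4.11, 3.07, 3.29 and 5.25 FPKM, against 3.99, 6.20, 3.87, 6.21 and 5.92 FPKM in trained wild-type hearts. In sedentary hearts 4 of 5 labelled knockouts exceeded every wild-type heart, and replicate 1 lay inside the wild-type range.

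Prodh rose by 0.84 ± 0.23 on the log2 scale in sedentary labelled knockouts (adjusted p = 0.0178). It fell with training in labelled knockouts (-1.23 ± 0.23, adjusted p = 0.000457) and showed -0.37 ± 0.23 between trained genotypes (adjusted p = 0.251). The sedentary call was lost without wild-type sedentary replicate 3 (0.68), labelled knockout sedentary replicate 3 (0.76) or replicate 5 (0.75). It was also lost with Arntl as a covariate (0.29), and the labelled knockout heart inside the wild-type range was the one with Arntl above 2 FPKM. Prodh overlaps Dgcr6 (mean 11.5 FPKM) on the other strand. The kit marks strand while the counting setting is not given in the sources used here, so the level of Prodh is uncertain. Dgcr6 itself showed 0.16 in sedentary labelled knockouts (adjusted p = 0.299) and fell by 0.46 with training in labelled knockouts.

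Aldh4a1, which oxidises the product of proline dehydrogenase to glutamate (chromosome 4, 139622866 to 139649690, plus strand), moved with training in the labelled knockouts. It had 8.59, 9.68, 8.78, 7.98 and 10.4 FPKM in trained labelled knockouts, against 17.4, 18.5, 16.3, 16.8 and 18.3 FPKM in sedentary labelled knockouts. In wild type it had 19.6, 14.02, 19.3, 15.3 and 16.8 FPKM after training, against 18.99, 18.5, 19.1, 23.4 and 21.1 FPKM in sedentary hearts. The labelled knockout groups were far apart, while the wild-type groups overlapped. The change with training was -0.91 ± 0.09 in labelled knockouts (adjusted p = 4.48e-06) and -0.25 ± 0.09 in wild type (adjusted p = 0.102). The difference between these was -0.66 ± 0.13 (adjusted p = 0.00825). Prodh and Aldh4a1, which act in sequence, showed 0.84 and -0.20 in sedentary labelled knockouts, and the difference between them was not tested.

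Glud1 encodes glutamate dehydrogenase, which returns glutamate to 2-oxoglutarate (chromosome 14, 34310727 to 34345265, plus strand). It had 32.5, 32.6, 29.1, 28.7 and 30.4 FPKM in labelled knockout sedentary hearts, against 47.1, 44.3, 46.6, 40.3 and 40.4 FPKM in wild-type sedentary hearts. After training, the labelled knockouts had 29.1, 28.4, 29.1, 28.7 and 28.3 FPKM, against 43.4, 31.5, 37.2, 31.6 and 35.2 FPKM in wild type. Glud1 fell in sedentary labelled knockouts (-0.50 ± 0.08, adjusted p = 0.000291) and in trained ones (-0.30 ± 0.08, adjusted p = 0.00586), with no overlap in either pair. It also fell with training in wild type (-0.29 ± 0.08, adjusted p = 0.0361), a call lost in 6 of 10 fits that left out a heart. Training in labelled knockouts gave -0.09 ± 0.08 (adjusted p = 0.411), and the hearts of the 2 labelled knockout groups overlapped. The difference between the training changes did not pass (0.20 ± 0.11, adjusted p = 0.238).

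Of the 2 alanine aminotransferases, Gpt fell in both genotype comparisons and Gpt2 in trained hearts. Gpt, the cytosolic enzyme (chromosome 15, 76695716 to 76699686, plus strand), had 8.60, 12.2, 15.7, 9.88 and 9.97 FPKM in labelled knockout sedentary hearts, against 16.8, 17.9, 17.8, 18.3 and 20.9 FPKM in wild-type sedentary hearts. Its level in trained hearts was 4.55, 7.08, 4.51, 4.29 and 5.22 FPKM in the labelled knockouts, against 15.9, 22.02, 16.2, 16.4 and 14.6 FPKM in wild type. No labelled knockout heart reached the wild-type hearts of its activity group, and trained labelled knockouts were lowest. The difference in trained hearts, -1.65 ± 0.15 (adjusted p = 1.36e-07), was the largest fall among the 28 genes in any comparison. Gpt2, the mitochondrial enzyme, showed -0.06 ± 0.12 in sedentary labelled knockouts (adjusted p = 0.786) and fell by 0.45 in trained ones (adjusted p = 0.00893). Oat, the ornithine aminotransferase, fell by 0.21 in trained labelled knockouts (adjusted p = 0.0303), a direction that turned to 0.079 when the FPKM were rescaled to a common sum. That call of Oat was lost in 7 of 10 fits that left out a heart.

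**Figure D3:**
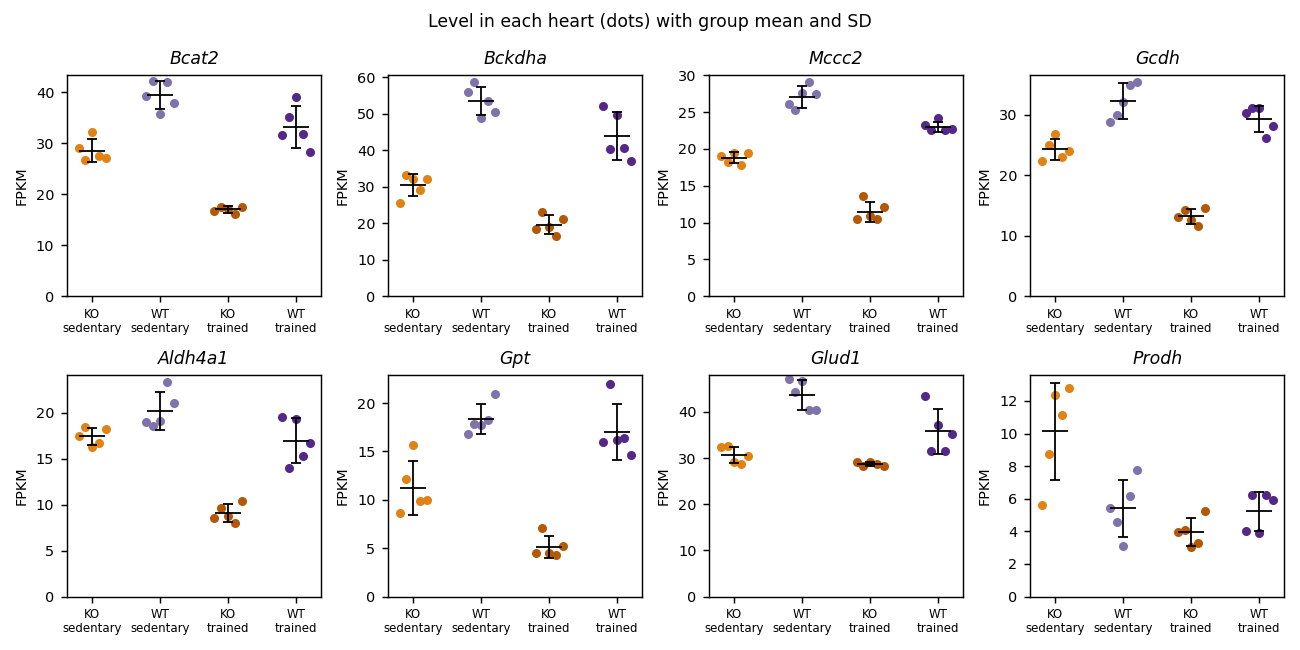
FPKM of 8 genes in each heart (dots) with the group mean and SD (black), the 5 hearts of each group side by side and KO standing for labelled knockout. Bcat2, Bckdha, Mccc2, Gcdh and Gpt step down in both labelled knockout groups, Aldh4a1 in the trained one, Glud1 is level between the 2 labelled knockout groups, and Prodh is high in 4 of 5 sedentary labelled knockout hearts.

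In sedentary labelled knockouts 17 of 20 tested branched-chain genes fell and 0 rose (median log2 fold change -0.52), against 3 fallen and 1 risen of 8 other genes (median -0.24). In trained labelled knockouts 19 of 20 and 6 of 8 fell against trained wild type, with medians of -0.80 and -0.41. With training in labelled knockouts the counts were 19 of 20 and 6 of 8, with medians of -0.54 and -0.76. Over all genes tested 6.32%, 15.4% and 16.3% fell in these 3 comparisons, in that order. The difference between the branched-chain and other genes was not tested. Of the 28 genes 20 fell in both genotype comparisons, and 19 of these also fell with training in labelled knockouts. The share of all genes that did so was not counted, and these comparisons share groups of hearts. Only Slc25a44 and Dhtkd1 of the 28 passed in no comparison on the deposited scale.

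All 5 labelled knockout hearts lay below all 5 wild-type hearts for 20 of 28 genes in sedentary mice (5.29% of all genes) and for 24 of 28 in trained mice (11.1% of all genes). Genes with all labelled knockout hearts above all wild-type hearts numbered 0 of 28 in sedentary and 0 of 28 in trained mice, against 5.14% and 8.07% of all genes. All trained labelled knockout hearts lay below all sedentary ones for 24 of 28 (13.7% of all genes), and above them for 0 of 28 (8.96% of all genes). In wild type all trained hearts lay above all sedentary ones for 0 of 28 (2.24% of all genes). Within the trained labelled knockouts, replicate 4 was the lowest heart for 24 of 28 genes. Replicates 2 and 5, the hearts with atrial and adipocyte transcripts, were the 2 highest for 23 of 28. Without all 4 such hearts 24 genes fell with training in labelled knockouts (median log2 fold change -0.69) and 25 between trained genotypes (median -0.96). The training change was then more negative in labelled knockouts for 14 genes (median difference -0.47). Of these, 10 were among the 11 called with all hearts. Of all 13723 genes tested, 2186 and 1939 fell in these comparisons, and 800 had a more negative training change.

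The 5 wild-type training calls, Dbt, Ivd, Mccc2, Acadsb and Glud1, depended on single hearts. They numbered 0 without any of wild-type sedentary replicates 1, 2 or 3 or wild-type trained replicates 2, 4 or 5, and 3 without wild-type sedentary replicate 4. Without wild-type trained replicate 1, the highest of its group for 16 of 28 genes, 13 fell. They were also 0 without the hearts with Myl7 above 1000 FPKM.

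Partner ratios show which members of a pair changed more. Log2 ratios were compared for 7 pairs in 4 comparisons by two-sided exact permutation tests with 28 p-values adjusted together; the smallest p that 5 against 5 hearts allow is 0.00794, adjusted 0.037, and 6 of 28 reached it. The log2 ratio of the kinase Bckdk to the phosphatase Ppm1k was 2.06 ± 0.18 in trained labelled knockouts and 1.22 ± 0.22 in trained wild type (SD, n = 5 each), higher by 0.83 with no overlap (exact permutation adjusted p = 0.037). In sedentary hearts it was 1.69 ± 0.40 in labelled knockouts and 0.89 ± 0.48 in wild type, and this difference of 0.80 did not pass (exact permutation adjusted p = 0.111).

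The log2 ratio of cytosolic Gpt to mitochondrial Gpt2 was -0.22 ± 0.24 in trained labelled knockouts and 0.97 ± 0.26 in trained wild type (SD, n = 5 each; difference -1.20, exact permutation adjusted p = 0.037). In 4 of the 5 trained labelled knockout hearts Gpt thus lay below Gpt2, and in all trained wild-type hearts above it. The log2 ratio of Mccc1 to Mccc2 rose by 0.19 with training in labelled knockouts (exact permutation adjusted p = 0.037). That of Bcat1 to Bcat2 rose by 0.65 in sedentary labelled knockouts, by 1.11 in trained ones and by 0.95 with training in labelled knockouts (exact permutation adjusted p = 0.037 in each). Bcat1 is near 0 in these hearts and lay below the level for testing. With 0.5 FPKM added to each gene, these ratios therefore largely restate the fall of Bcat2. Bcat2 alone showed -0.46, -0.94 and -0.73 in the same comparisons. With a pseudocount of 0.1 the sedentary difference of the ratio did not pass (exact permutation adjusted p = 0.0635). The subunit ratios Bckdha to Bckdhb, Bckdha to Dbt and Pcca to Pccb passed in 0 of 12 tests, with differences between -0.25 and 0.32.

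**Figure D4:**
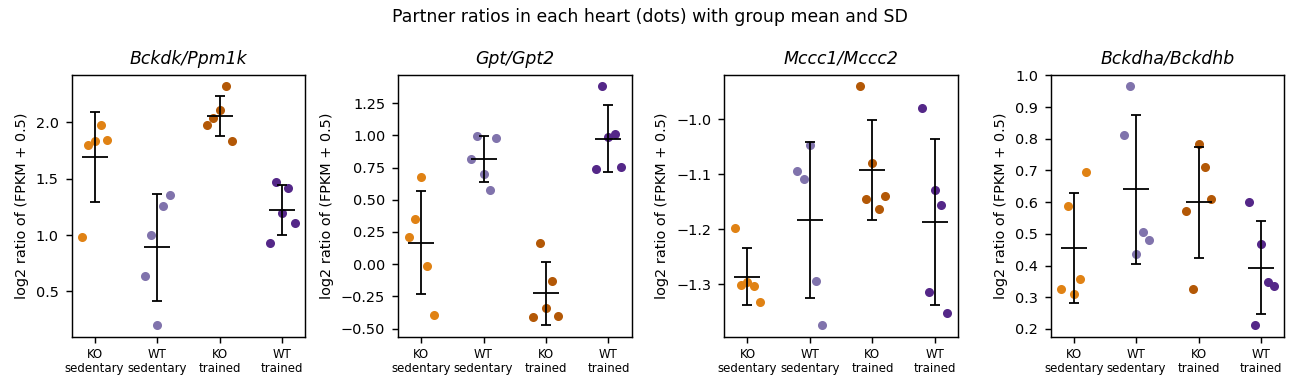
Log2 ratio of (FPKM + 0.5) for 4 partner pairs in each heart (dots) with the group mean and SD (black); KO is labelled knockout. Bckdk over Ppm1k is higher in trained labelled knockouts than in every trained wild-type heart, Gpt over Gpt2 lower, and Bckdha over Bckdhb overlaps between all groups.

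Cell markers moved with some of these differences. The summed level of 10 cardiomyocyte markers was 15488 to 17878 FPKM in trained labelled knockouts, 22415 to 26216 FPKM in sedentary labelled knockouts, 19043 to 25005 FPKM in trained wild type and 22167 to 27815 FPKM in sedentary wild type. In trained labelled knockouts 7 of the 10 fell against sedentary labelled knockouts (median log2 fold change -0.59) and 7 of 10 against trained wild type (median -0.39). In sedentary labelled knockouts 2 of 10 fell (median -0.03). Of 6 macrophage markers 6 rose in trained labelled knockouts against either group (medians 0.84 and 1.22) and 3 in sedentary ones (median 0.44). Of 6 fibroblast markers 4 and 5 rose (medians 0.81 and 0.65), and 0 in sedentary ones. No marker of these 3 lists was at 0 in all hearts of a group. In sedentary labelled knockouts the summed level of 4 smooth muscle markers was 354 to 408 FPKM, against 48.9 to 157 FPKM in wild type. Only 3 smooth muscle markers were tested there, and 1 rose and 0 fell (median log2 fold change 0.33). For 5 skeletal muscle markers the sum was 2301 to 3325 FPKM in sedentary labelled knockouts, against 526 to 1195 FPKM in sedentary wild type. Only 3 skeletal muscle markers were tested, and 2 rose and 0 fell in sedentary labelled knockouts (median 0.79). Of the skeletal muscle markers 1 was at 0 in all sedentary wild-type hearts. The smooth and skeletal muscle sums thus do not show that every marker of a list rose. The summed level of 6 endothelial markers was 109 to 139.96 FPKM in sedentary labelled knockouts, against 148 to 181 FPKM in sedentary wild type, and 109.7 to 142 FPKM in trained labelled knockouts, against 140.1 to 189.7 FPKM in trained wild type. Of these 6 markers 2 fell in sedentary and 3 in trained labelled knockouts. The summed level of 6 atrial markers was 267 to 904 FPKM in sedentary labelled knockouts, against 35.1 to 245 FPKM in sedentary wild type. In trained hearts it was 1486 to 5631 FPKM in labelled knockouts, against 16.3 to 9330 FPKM in wild type. Taken singly, 0 of the 6 atrial markers rose and 0 fell in sedentary labelled knockouts (median log2 fold change 0.0071). In trained labelled knockouts 1 rose and 0 fell against trained wild type (median 0.35). The atrial sums thus do not describe the list as a whole. The part of these markers in the results was not tested.

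Scaled to the sum of the cardiomyocyte markers, an alternative added after values were seen, 19 genes fell and 1 rose in sedentary labelled knockouts (median -0.50), and 17 fell and 1 rose between trained genotypes (median -0.46). All 19 and all 17 were among those that fell on the deposited scale. With training in labelled knockouts 6 fell on this scale (Ivd, Gpt, Gcdh, Prodh, Aldh4a1 and Hsd17b10) and 3 rose (Glud1, Oat and Slc25a44), with a median of -0.05. On the same scale the median of all genes lay at -0.04 in sedentary labelled knockouts, 0.29 between trained genotypes and 0.45 with training in labelled knockouts. What part the markers' change has in the fall was not tested.

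**Figure D5:**
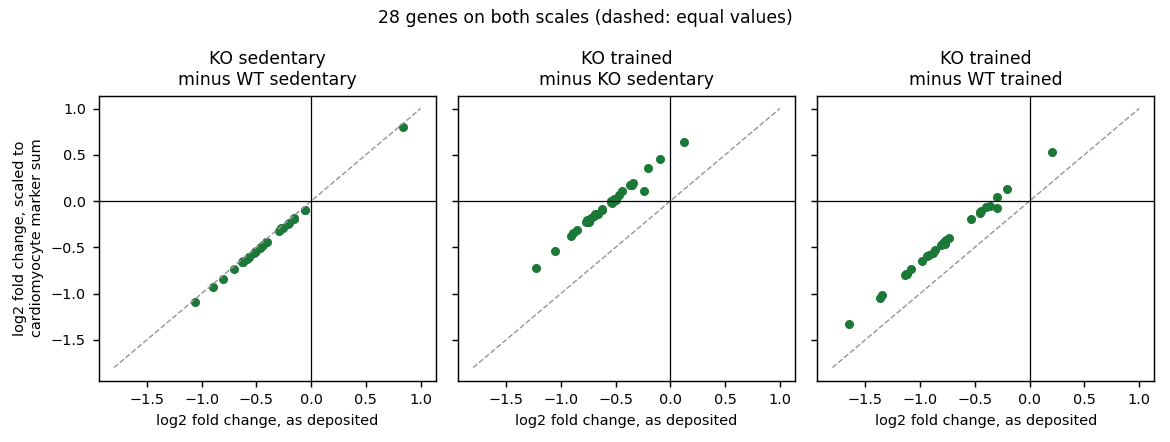
Log2 fold change of the 28 genes as deposited (horizontal) and after scaling each heart to its summed cardiomyocyte markers (vertical) in 3 comparisons, with equal values on the dashed line; KO is labelled knockout. Points lie near the line in sedentary hearts, are shifted upward between trained genotypes with most still below 0, and centre near 0 for training in labelled knockouts.

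The scaling of the table also bears on the counts. Rescaled to a common sum of FPKM, the median of all genes moved to 0.07, 0.05, 0.21 and 0.24 for genotype in sedentary hearts, training in wild type, training in labelled knockouts and genotype in trained hearts. All genes then split into 1061 risen and 393 fallen in the first (955 and 867 as deposited), 186 and 54 in the second (403 and 347), 4052 and 630 in the third (1656 and 2236) and 5128 and 789 in the fourth (1713 and 2112). Of the 28 genes 18, 0, 17 and 19 still fell. Relative to the all-gene median, the median of the 28 genes lay at -0.44, -0.21, -0.53 and -0.75 on that scale.

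Other genes of branched-chain breakdown, from a list of 24 of which 22 were tested, also fell. In sedentary labelled knockouts 12 of 22 fell and 0 rose (median log2 fold change -0.43), where 6.32% of all genes fell and 6.96% rose. In trained ones 17 fell and 0 rose (median -0.66), where 15.4% of all genes fell and 12.5% rose. With training 17 fell in labelled knockouts and 6 in wild type, where 16.3% and 2.53% of all genes fell. These counts are given only for the fit of all 20 hearts on the deposited scale. Echs1, the enoyl-CoA hydratase of valine and of fatty acid oxidation, had 17.9, 22.003, 19.4, 17.3 and 20.4 FPKM in trained labelled knockouts, against 46.1, 36.8, 46.3, 37.7 and 38.2 FPKM in trained wild type (-1.06, adjusted p = 2.28e-08). Acat1, the thiolase that ends isoleucine breakdown, and Etfdh, which passes electrons from acyl-CoA dehydrogenases to ubiquinone, fell by 0.57 and 0.71 in sedentary labelled knockouts. Etfa, a subunit of the electron transfer flavoprotein that serves Ivd, Acadsb, Acad8 and Gcdh enzymes, fell by 0.51 and, in trained labelled knockouts, by 0.92. Mmaa, a cobalamin chaperone, had a more negative training change in labelled knockouts than in wild type (interaction -0.41, adjusted p = 0.0111).

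Of genes for the breakdown of further amino acids, most calls were falls. Of 23 tested genes of a list of 49, 4 fell (Fah, Got2, Got1 and Ethe1) and 2 rose (Glul and Amt) in sedentary labelled knockouts, and 10 fell and 0 rose in trained ones. Over all genes 6.32% fell and 6.96% rose in sedentary hearts, so the risen share of the list was near that of all genes, and in trained hearts 15.4% fell and 12.5% rose. Got1 and Got2, the aspartate aminotransferases of the malate-aspartate shuttle, fell by 1.19 and 0.91 in trained labelled knockouts. Ethe1 and Mpst, of sulphur amino acid breakdown, fell by 1.10 and 0.73 there. Fah, the last enzyme of tyrosine breakdown, had 5.27, 5.63, 5.59, 4.25 and 4.76 FPKM in labelled knockout sedentary hearts, against 11.8, 9.80, 8.84, 8.83 and 9.64 FPKM in wild-type sedentary hearts. Glul, the glutamine synthetase, rose by 0.63 and Amt, of glycine cleavage, by 0.48.

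Of 26 tested transporters and regulators, 2 rose and 5 fell in sedentary labelled knockouts, and 4 rose and 7 fell in trained ones. The risen shares were near the 6.96% and 12.5% of all genes that rose. Over all genes 6.32% and 15.4% fell. Slc7a5, the plasma membrane carrier of large neutral amino acids, rose in all 4 pairwise comparisons. It had 3.80, 3.69, 3.77, 3.81 and 3.82 FPKM in trained labelled knockouts, against 2.94, 1.68, 2.35, 2.21 and 3.20 FPKM in trained wild type, and 2.15, 2.55, 1.83, 2.89 and 2.36 FPKM in sedentary labelled knockouts, against 1.98, 1.68, 1.10, 1.65 and 1.46 FPKM in sedentary wild type. Slc7a5 is 1 gene of this list and moved opposite to most of the mitochondrial enzymes in the labelled knockouts. A link between them was not tested. With wild-type training Slc3a2, its partner chain, and Atf4, a regulator of amino acid response genes, rose by 0.51 and 0.47.

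Klf15, a transcription factor known to induce branched-chain breakdown genes, showed 0.28 in sedentary labelled knockouts (adjusted p = 0.432). It fell by 0.83 in trained labelled knockouts against trained wild type (adjusted p = 0.00977) and by 0.63 with training in labelled knockouts (adjusted p = 0.0443). Its training change differed between genotypes by -1.10 (adjusted p = 0.0438). Esrra fell by 0.47 in sedentary and 0.85 in trained labelled knockouts, and the carriers Slc25a12, of aspartate and glutamate, and Slc25a29, of basic amino acids, fell by 0.73 and 1.25 in trained ones. Mmut, Agxt2, Aadat and Prodh2 were not analysed here.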

How the data were processed

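Heart RNA of 20 mice in 4 groups of 5 was sequenced, and the authors deposited one table of FPKM for 25851 genes. The build mm10, with the tools DESeq2 1.20.0, featureCounts 1.5.0-p3 and HISAT2 2.0.5, is named per the submitters' processing notes. Scaled back by gene length and depth, the deposited FPKM gave whole reads (within 0.01) in every library for 24966 genes (96.6%), at 14.2 to 30.4 M reads per library. The library sizes behind the deposited FPKM depart from the recovered reads and equal median-ratio size factors up to a constant (ratio 0.996 to 1.003).

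Genes with a mean of at least 0.5 FPKM (13723, with 12128 left out) were tested on log2(FPKM + 0.5) with limma 3.58.1 in R 4.3.3, in one fit of the 4 groups with trend, and p-values were adjusted by Benjamini-Hochberg over all genes. Fold changes are on that scale and understate changes of low genes. Pairs of members were compared with exact permutation tests (scipy 1.17.1). The fit was tested on simulated data. Values per library are given for the member of each step with the smallest p in sedentary hearts, for up to 4 members with the smallest p of every other comparison, and for members that moved against their step; from the other lists, up to 4 past the threshold per comparison were eligible. Values of Ppm1k, Klf15 in sedentary hearts, Glul and Amt were added after they were seen. The members and lists were chosen with earlier results of these data known. Cardiomyocyte marker scaling and the NRF1 motif were added after values were seen. All 5 hearts of a group are from separate mice per the labels, and p-values measure the spread between these libraries. The labels do not say that replicate numbers pair mice, so no block was used. Strain, Cre line and strand setting are not given in the sources used here.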

Additional observations from a re-analysis of the deposited data

Results flagged for a closer look

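In 3 of 112 pairs of a gene and a group, 1 heart stood apart from the other 4 by Dixon's test, which chance gives in about 1 in 20 groups. Ppm1k had 12.2 FPKM in labelled knockout sedentary replicate 1, the labelled knockout heart with Arntl above 2 FPKM. Hsd17b10 had 88.2 FPKM in labelled knockout sedentary replicate 3, and Gpt had 22.02 FPKM in trained wild-type replicate 2.

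The training change differed between genotypes for 11 genes by the interaction term of limma (adjusted p below 0.05), more negative in labelled knockouts each time. On the log2 scale the difference was -1.21 for Prodh, -0.94 for Gpt, -0.73 for Bckdhb, -0.72 for Gcdh, -0.66 for Aldh4a1, -0.61 for Mcee and -0.58 for Hsd17b10. It was -0.52 for Ivd, -0.48 for Bcat2, -0.46 for Mccc2 and -0.36 for Auh. Of 20 fits that each left out 1 heart, the call was lost in 15 for Auh, 13 for Ivd and 10 for Prodh, and in 0 for the other 8. Other settings kept fewer of the 11 calls: 2 after rescaling to a common sum of FPKM, 4 with Arntl as a covariate and 1 under cardiomyocyte marker scaling.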

How the results depend on the processing

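Counts below are of the 28 genes. In sedentary labelled knockouts 0 rose and 0 fell with the high-Arntl hearts left out, where the 1 sedentary wild-type heart that remains is assumed to vary like the other groups, and 0 rose with Arntl as a covariate. With training in wild type, 5 fell as reported. This count was 0 with no filter on low values, with rescaling to a common sum (TPM scaling), with the 2 groups fitted alone, without the hearts with high Myl7, without those with high Arntl, with Arntl as a covariate and with cardiomyocyte marker scaling. It was 1 with Myl7 as a covariate, 3 with a common sum without mitochondrial genome transcripts, 3 with voom on recovered reads and 10 with array weights. With training in labelled knockouts 1 rose under TPM scaling, and 3 rose and 6 fell under cardiomyocyte marker scaling. Between trained genotypes 1 gene, Slc25a44, rose under each of these scalings and under the common sum without mitochondrial genome transcripts. The interaction was more negative for 2 genes under TPM scaling, 2 under the common sum without mitochondrial genome transcripts, 17 with array weights, 0 without the hearts with high Arntl, 4 with Arntl as a covariate and 1 under cardiomyocyte marker scaling. It was more positive for 1 with array weights and 2 under cardiomyocyte marker scaling. The causes of these changes were not tested.

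Without 1 heart at a time, 0 to 1 rose and 18 to 20 fell in sedentary labelled knockouts, 0 to 13 fell with training in wild type, 23 to 25 fell with training in labelled knockouts and 24 to 25 fell between trained genotypes. The interaction was more negative for 8 to 14, and 0 to 5 ratio tests passed, where 4 against 5 hearts allow no exact permutation p under 0.0159. Ratio tests that passed numbered 0 without the hearts with high Myl7. There the trained groups hold 3 hearts each, and a test between them allows no exact p under 0.1. Training in labelled knockouts was then tested on 3 against 5 hearts. Tests between the sedentary groups kept all their hearts and p-values, and only the joint adjustment changed for them. Neither loss bears on the stability of the ratios.

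Under cardiomyocyte marker scaling the training change in labelled knockouts turned to 0.019 for Pcca, 0.014 for Mccc1, 0.46 for Glud1, 0.11 for Pccb, 0.17 for Hibch, 0.20 for Acadsb, 0.17 for Bckdk, 0.35 for Oat and 0.066 for Acad8, and the difference between trained genotypes to 0.041 for Glud1 and 0.14 for Oat. Oat turned to 0.070 with training in labelled knockouts and 0.079 between trained genotypes under TPM scaling, and to 0.0050 between trained genotypes under the common sum without mitochondrial genome transcripts.

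Deviations of same-numbered hearts from their group means correlated between -0.28 and 0.48, from 0.25 to 0.36 for replicate 1 and from 0.079 to 0.48 for replicate 5, and not every pair exceeded 0.1. With a replicate block the counts that rose and fell were 1 and 20 in sedentary labelled knockouts, 0 and 7 with training in wild type, 0 and 24 with training in labelled knockouts, 0 and 26 between trained genotypes and 0 and 11 for the interaction. Under the block 0 ratio tests passed, and none could, since 5 pairs allow no exact permutation p under 0.0625. Over all genes the block gave 804 risen and 860 fallen with training in wild type (403 and 347 as reported). That comparison gave 33 and 6 without the hearts with high Myl7, 52 and 9 with 2 groups alone and 1221 and 1418 with array weights. Sedentary genotype gave 10 and 9 without the hearts with high Arntl and 272 and 322 with Arntl as a covariate (955 and 867 as reported). Cardiomyocyte marker scaling gave 9108 and 139 with training in labelled knockouts (1656 and 2236 as reported) and 5983 and 680 between trained genotypes (1713 and 2112 as reported). Voom on recovered reads called 873 and 815 genes for sedentary genotype, 316 and 260 for training in wild type, 1730 and 2273 for training in labelled knockouts and 1763 and 2140 for trained genotype. At 14.2 to 30.4 M reads, depth limits Bcat1, Aass and Dhtkd1 most.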
